A study of Mus musculus with 5 samples.

Results

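Cycling mammary epithelial cells were followed through 5 single-cell RNA libraries. A barcode, which stands for a droplet called as a cell, was counted as cycling when it held at least 2 unique molecular identifiers (UMIs, 1 per captured transcript) of Mki67, Top2a, Cdk1, Ube2c and Ccnb2 together. It also had to hold at least 10 UMIs of Epcam, Krt8 and Krt18 per 10000, fewer than 50 of Col1a1, Col1a2, Col3a1 and Dcn per 10000, no Ptprc UMI and at most 10% mitochondrial UMIs. This gave 318 of 14344 barcodes, or 5.61% of the 5673 barcodes that passed the epithelial gates. The other 5355 gated barcodes are called other epithelial barcodes here. Because the members were chosen by these genes, every difference in gene level between cycling and other epithelial barcodes is a description and was not tested. The share of cycling barcodes in each lineage was compared over libraries, as lineage genes took no part in the choice.

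The mice were ovariectomized BALB/cj females, operated on at the ninth week after birth and treated from 20 weeks later for 1 week, with an age of 30 weeks on the labels. OVX received the DMSO vehicle, OVX_E2 received 17β-estradiol at 1 µg per animal, and OVX_E2_P4 received 17β-estradiol with progesterone at 0.1 mg per animal, by daily intraperitoneal injection. OVX_E2_PBDE and OVX_E2_P4_PBDE received the same hormones and food with polybrominated diphenyl ethers (PBDEs), namely 7.1 mg/kg of BDE-47, 0.4 mg/kg of BDE-100 and 0.9 mg/kg of BDE-153, while the other groups ate matched food with DMSO. All groups therefore lacked ovaries, and the model holds no ovary-intact control. Each group is 1 library from the number 4 glands, dissociated without sorting, and how many mice a library pools is not given in the sources used here. OVX held 20293934 UMIs, OVX_E2 29590862, OVX_E2_PBDE 42012988, OVX_E2_P4 32648416 and OVX_E2_P4_PBDE 19982067. Because a group is a single library, the spread between mice could not be measured, no p-value is given for a difference between libraries, and all intervals are 95% intervals that cover counting error only. The submitters' library numbers are consecutive for the PBDE libraries and lie some way from those of the other 3. What the numbers stand for is not given in the sources used here, and anything the PBDE libraries share by handling cannot be told apart from the PBDEs.

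A cell that divides first copies its DNA in S phase and then, through G2, enters mitosis. S-phase genes such as Mcm6, a subunit of the replicative helicase, and Rrm2, a subunit of ribonucleotide reductase, are switched on by E2F factors. Genes of G2 and mitosis are held down in resting cells by the DREAM complex and activated later, through the cell cycle genes homology region (CHR) and CCAAT boxes of their promoters. In the mammary gland the luminal layer holds hormone-sensing cells (L-Hor), which carry estrogen and progesterone receptors and send the EGF-family ligand amphiregulin (Areg), and alveolar cells (L-Alv), which turn to milk production. Basal cells form the contractile outer layer.

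The promoters of the 5 genes that chose the cells are shown because the rule rests on these genes. Their joint presence in the members is partly set by the rule. The 200 bases before the RefSeq start are given in the direction of the gene, on build GRCm38.p6, with capitals for matches on either strand to the CHR (TTTGAA), to CCAAT and to the E2F strings TTTCGCGC, TTTGGCGC and TTTCCCGC. Mki67, the proliferation antigen, is at chr7:135716380-135716579 (minus strand), Top2a, which untangles DNA for mitosis, at chr11:99024190-99024389 (minus), Cdk1, the mitotic kinase, at chr10:69352913-69353112 (minus), Ube2c, the ubiquitin-conjugating enzyme of the anaphase-promoting complex, at chr2:164769729-164769928 (plus), and Ccnb2, a B-type cyclin, at chr9:70421555-70421754 (minus).
Mki67: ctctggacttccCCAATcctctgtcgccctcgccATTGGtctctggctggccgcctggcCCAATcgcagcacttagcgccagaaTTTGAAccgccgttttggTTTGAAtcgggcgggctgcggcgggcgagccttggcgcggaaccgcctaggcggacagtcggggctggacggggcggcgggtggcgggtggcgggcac
Top2a: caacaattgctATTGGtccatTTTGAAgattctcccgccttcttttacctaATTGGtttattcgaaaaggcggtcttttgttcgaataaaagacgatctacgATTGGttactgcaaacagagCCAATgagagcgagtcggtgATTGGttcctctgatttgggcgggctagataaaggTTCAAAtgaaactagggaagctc
Cdk1: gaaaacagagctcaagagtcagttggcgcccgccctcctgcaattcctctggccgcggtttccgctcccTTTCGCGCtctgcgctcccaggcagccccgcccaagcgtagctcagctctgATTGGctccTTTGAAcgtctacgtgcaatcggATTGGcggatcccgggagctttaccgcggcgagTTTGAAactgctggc
Ube2c: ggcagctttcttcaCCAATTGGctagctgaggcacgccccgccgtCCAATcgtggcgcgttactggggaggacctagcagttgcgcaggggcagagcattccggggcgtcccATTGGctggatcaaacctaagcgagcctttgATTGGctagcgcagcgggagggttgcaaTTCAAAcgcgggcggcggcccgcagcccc
Ccnb2: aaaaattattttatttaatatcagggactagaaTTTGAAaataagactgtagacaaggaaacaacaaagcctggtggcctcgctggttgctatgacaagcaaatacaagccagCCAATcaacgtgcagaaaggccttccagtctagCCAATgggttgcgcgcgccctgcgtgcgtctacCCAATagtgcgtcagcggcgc
The windows of all 5 genes, from 250 bases before to 50 after the start, held both a CHR match and a CCAAT match. Of 27025 genes with such a window, 20.2% held a CHR match, 41.1% a CCAAT match, 7.97% both and 2.12% an E2F string. The shares differed by list. Among 15 matched genes of the spindle list 80.0% held a CHR match and none an E2F string, and among 12 matched genes of the replication licensing list 25% held a CHR match and 66.7% an E2F string. Of 11 matched fork genes 36.4% held an E2F string, and of 7 matched genes of nucleotide synthesis none did and 14.3% held a CHR match. A CCAAT match was held by 66.7% of the spindle, 83.3% of the licensing, 54.5% of the fork and 42.9% of the nucleotide synthesis genes. The next sequences are of genes from these lists and of the marker outside the rule, Mcm6 at chr1:128359706-128359905 (minus) and Rrm2 at chr12:24708054-24708253 (plus), with Birc5, the survivin of the chromosomal passenger complex, at chr11:117849037-117849236 (plus).
Mcm6: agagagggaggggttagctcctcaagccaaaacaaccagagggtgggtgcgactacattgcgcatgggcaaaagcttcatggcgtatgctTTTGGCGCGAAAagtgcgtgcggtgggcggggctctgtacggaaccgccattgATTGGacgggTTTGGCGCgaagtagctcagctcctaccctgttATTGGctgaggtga
Rrm2: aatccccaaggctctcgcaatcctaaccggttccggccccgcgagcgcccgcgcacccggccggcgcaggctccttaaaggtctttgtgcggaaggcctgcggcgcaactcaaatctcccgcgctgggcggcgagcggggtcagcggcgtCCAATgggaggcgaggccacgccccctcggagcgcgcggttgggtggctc
Birc5: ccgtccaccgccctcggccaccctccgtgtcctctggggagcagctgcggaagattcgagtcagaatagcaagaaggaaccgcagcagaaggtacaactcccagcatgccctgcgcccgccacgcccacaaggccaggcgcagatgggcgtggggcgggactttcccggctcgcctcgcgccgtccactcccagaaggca
Mcm6 held 3 E2F matches, of which those beginning 110 and 106 bases before the start overlap. Birc5 held no match to these letters in this window, and Rrm2 held a CCAAT match alone. A match is a description of letters and not a measured binding site.

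Before the values, some barcodes stand apart. OVX held only 3 cycling barcodes, with 47116, 17853 and 28206 UMIs, and the last of these alone held 295 UMIs of Cd74 and 143 of H2-Aa, genes of antigen-presenting cells, and the share of cycling barcodes in OVX_E2 exceeded that in OVX by 9.37 points without it and by 9.02 points with it. Cycling barcodes held more UMIs than other epithelial barcodes in every library. The median was 28206, 29195, 31300, 19427 and 16937 UMIs in OVX, OVX_E2, OVX_E2_PBDE, OVX_E2_P4 and OVX_E2_P4_PBDE, against 11291, 12033, 13486, 9914 and 7221. The mitochondrial share differed little, at 2.86% to 3.59% against 2.75% to 3.53%. Scrublet, which scores barcodes against simulated doublets, put 32.4%, 39.2%, 44.0% and 32.5% of the cycling barcodes of OVX_E2, OVX_E2_PBDE, OVX_E2_P4 and OVX_E2_P4_PBDE among the 20% of barcodes with the highest scores, against 18.5%, 10.4%, 22.1% and 22.3% of other epithelial barcodes. In OVX these were 2 of 3 cycling barcodes against 8.77%. Doublets were not removed. Some results were recomputed without the 20% of barcodes with the highest scores, and beyond this the part of doublets was not tested. Any pair of libraries shared 3 to 15 barcode sequences, none of them cycling in both. At least 20 UMIs per 10000 of the hematopoietic list, which includes Cd74 and Lyz2, were held by 1 cycling barcode of OVX and 1 of OVX_E2, and no cycling barcode held as much of the endothelial or the pericyte list.

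The cycling share was lowest with vehicle and highest with 17β-estradiol alone. OVX stood at 1.04% (0.215 to 3.01) of gated barcodes, OVX_E2 at 10.1% (8.33 to 12), OVX_E2_PBDE at 4.06% (3.04 to 5.30), OVX_E2_P4 at 6.27% (5.21 to 7.47) and OVX_E2_P4_PBDE at 3.32% (2.38 to 4.50). These are 3 of 288, 108 of 1073, 51 of 1257, 116 of 1851 and 40 of 1204 barcodes. Both PBDE libraries lay below their partners without PBDEs, and their own intervals overlapped each other.

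Since depth differs between libraries, each barcode was also thinned to 3000 UMIs. After thinning, the share with at least 2 cycle UMIs was 0.347%, 3.45%, 1.27%, 2.86% and 1.25% in the same order, so OVX_E2 and OVX_E2_P4 came close together. The share with any cycle UMI after thinning was 0.694%, 8.20%, 3.74%, 6.97% and 3.49%. In fibroblast-gated barcodes, taken here as a gauge of free RNA, it was 0.316%, 0.987%, 0.687%, 2.35% and 1.36%, at median depths of 5203, 6653.5, 7034, 5588 and 4252 UMIs. The epithelial share therefore lay above this gauge in the 4 libraries with 17β-estradiol, while the intervals overlapped in OVX. At the full condition 0 of 2528 fibroblast-gated barcodes of OVX and 0 of 1891 of OVX_E2_PBDE passed, which allows shares of up to 0.119% and 0.159%, against 1 of 912, 1 of 765 and 2 of 810 in OVX_E2, OVX_E2_P4 and OVX_E2_P4_PBDE. In OVX_E2, 8 fibroblast-gated barcodes held 29 Ube2c UMIs, and the part of dividing stromal cells or doublets in this gauge was not tested.

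**Figure D1:**
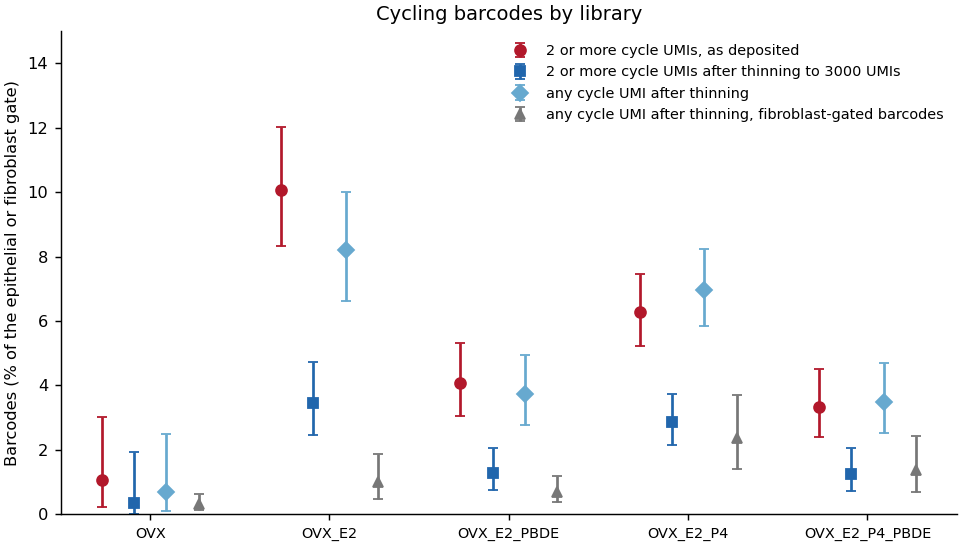
The percent of epithelial-gated barcodes that were cycling is plotted for each library (horizontal axis), as deposited and after thinning to 3000 UMIs, beside the percent with any cycle UMI in epithelial-gated and in fibroblast-gated barcodes. Bars are exact 95% intervals of counting error. OVX_E2 is highest as deposited at 10.1%, and after thinning OVX_E2 (3.45%) and OVX_E2_P4 (2.86%) overlap.

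The addition of 17β-estradiol to OVX went with a cycling share higher by 9.02 points (6.40 to 11.1), and by 3.10 points (1.23 to 4.42) after thinning. OVX_E2_P4 lay below OVX_E2 by 3.80 points (1.69 to 6.03) as deposited. After thinning this difference was -0.585 points (-2.04 to 0.744), which counting error covers. The same step in the presence of PBDEs was -0.735 points (-2.29 to 0.822). OVX_E2_PBDE lay 6.01 points below OVX_E2 (3.87 to 8.22), and the thinned difference was -2.18 points (-3.56 to -0.896). OVX_E2_P4_PBDE lay 2.94 points below OVX_E2_P4 (1.36 to 4.47), with a thinned difference of -1.62 points (-2.64 to -0.546). These 5 comparisons share libraries and are not independent.

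Many barcodes lay just outside the threshold of 2 UMIs. Exactly 1 cycle UMI was held by 442 gated barcodes, just outside, and exactly 2 by 59, just inside, while 217 held 5 or more and 79 held 20 or more. The median cycling barcode held 8, 9, 9, 9 and 6 cycle UMIs in OVX, OVX_E2, OVX_E2_PBDE, OVX_E2_P4 and OVX_E2_P4_PBDE. At least 3 of the 5 genes were seen together in 66.7%, 69.4%, 64.7%, 65.5% and 72.5% of cycling barcodes. At the epithelial limit, 6 barcodes with at least 2 cycle UMIs held 8 to 10 keratin and Epcam UMIs per 10000 and fell outside, and 2 with 10 to 12 fell inside. At the collagen limit, 1 lay just above 50 and none between 40 and 50.

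Birc5, which the rule did not use, was found in most cycling barcodes of the libraries with 17β-estradiol. Survivin transcripts were found in 86 of 108, 35 of 51, 83 of 116 and 29 of 40 cycling barcodes of OVX_E2, OVX_E2_PBDE, OVX_E2_P4 and OVX_E2_P4_PBDE, and in 1 of 3 of OVX. It was also found in 35 of 965, 10 of 1206, 55 of 1735 and 15 of 1164 other epithelial barcodes of the same 4 libraries and in 1 of 285 of OVX. Its level, as UMIs summed over barcodes and scaled to a sum of 1000000 (CPM), was 173, 136, 180.0 and 119 in the cycling and 2.32, 0.462, 3.09 and 1.26 in the other epithelial barcodes of those libraries. Mki67 was at 75.1, 44.8, 60.2, 56.8 and 39.8 CPM in the cycling barcodes of the 5 libraries, and Top2a at 107, 113, 111, 143 and 82.3 CPM. Ube2c was at 268, 160, 168, 238 and 199 CPM, and Ccnb2 at 150.3, 73.5, 62.6, 117 and 82.3 CPM. Cdk1 was at 53.7, 68.6, 49.8, 90.4 and 58.4 CPM. The rule fixes the presence of these 5 genes, and in OVX the UMIs of Mki67, Cdk1 and Birc5 each came from 1 of the 3 barcodes.

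Lineage leaning was read from thinned UMIs of Prlr and Cited1 (L-Hor) against Csn3 and Spp1 (L-Alv), with each cut at the 99th percentile of fibroblast-gated barcodes. The cuts therefore differed by library. In OVX, OVX_E2, OVX_E2_PBDE, OVX_E2_P4 and OVX_E2_P4_PBDE they were 1, 2, 1, 2 and 2 UMIs for L-Hor. For L-Alv they were 1, 1, 1, 3 and 2 UMIs. Prlr is the prolactin receptor, Cited1 a transcriptional cofactor of hormone-sensing cells, Csn3 the milk protein kappa-casein and Spp1 the secreted protein osteopontin. Of the 318 cycling barcodes 120 leaned to L-Alv, 91 to L-Hor, 66 to both and 41 to neither. Barcodes that leaned to both were deeper, with a median of 40108 UMIs against 20731 to 23425 in the other classes. The classes are ranges and not types, since 126 barcodes lay within 1 UMI of the L-Hor cut and 98 within 1 UMI of the L-Alv cut.

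Cycling barcodes held fewer L-Hor-leaning members than the rest of the epithelium. L-Hor-leaning barcodes were 30.6%, 17.6%, 29.3% and 37.5% of the cycling and 57.0%, 56.2%, 45.9% and 63.0% of the other epithelial barcodes in OVX_E2, OVX_E2_PBDE, OVX_E2_P4 and OVX_E2_P4_PBDE. L-Alv-leaning barcodes were 34.3%, 35.3%, 46.6% and 25% of the cycling and 17.9%, 16.5%, 30.0% and 12.6% of the others. In OVX 1 of the 3 leaned to L-Alv and 2 to both.

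**Figure D2:**
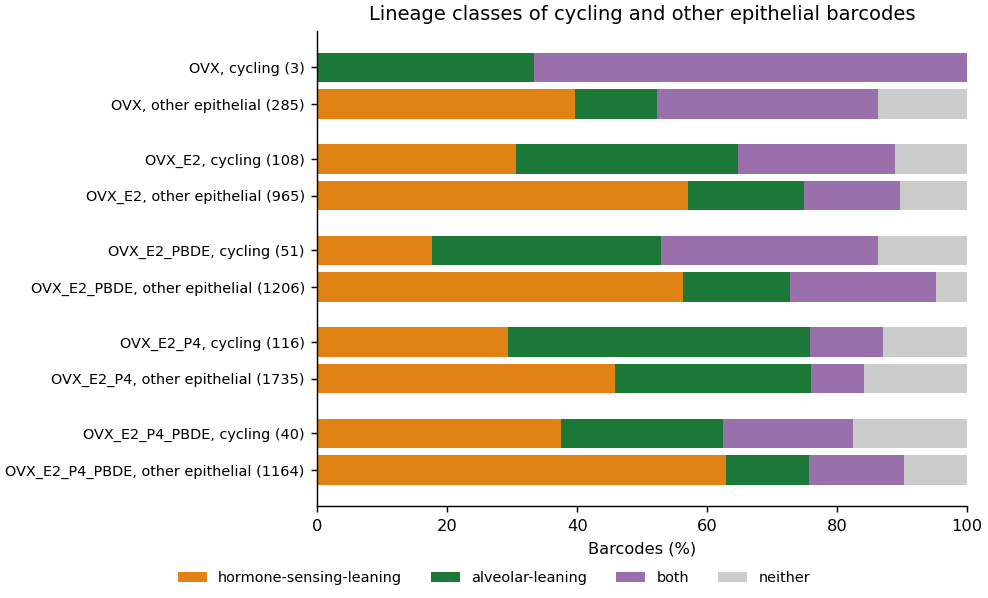
Stacked bars give the percent of barcodes (horizontal axis) in each lineage class, for cycling and other epithelial barcodes of each library, with the number of barcodes in brackets. The hormone-sensing part is smaller in cycling than in other epithelial barcodes of all 4 libraries with 17β-estradiol, and the OVX bar rests on 3 barcodes.

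Within a library the cycling share was higher among L-Alv-leaning than among L-Hor-leaning barcodes. As deposited it was 17.6% against 5.66% in OVX_E2, 8.29% against 1.31% in OVX_E2_PBDE, 9.39% against 4.10% in OVX_E2_P4 and 6.37% against 2.01% in OVX_E2_P4_PBDE. In OVX it was 1 of 37 against 0 of 113, the latter allowing up to 2.65%. After thinning, which takes out the greater depth of the L-Alv-leaning barcodes in 4 of the 5 libraries, it was 6.67% against 2.23%, 1.84% against 0.582%, 4.87% against 1.93% and 1.91% against 0.802%. The difference averaged 2.49 points over the 5 libraries and was above 0 in 5 of 5, with a two-sided exact sign-flip permutation test p of 0.062, the smallest that 5 libraries allow, so the design cannot reach 0.05. Only in OVX_E2, at 4.44 points (1.08 to 8.83), and OVX_E2_P4, at 2.94 points (0.944 to 5.19), did the counting interval of the thinned difference lie above 0. Without the 20% of barcodes with the highest Scrublet scores it was above 0 in 4 of 5 libraries, with a mean of 2.28 points and an exact p of 0.125. The only L-Alv-leaning cycling barcode of OVX was among those left out. The L-Alv-leaning class was not always the highest of the 4 classes. In OVX_E2_PBDE the class leaning to neither stood above it, at 9.23% after thinning and 10.8% as deposited. In OVX_E2_P4_PBDE the class leaning to both did so after thinning, at 2.23%.

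**Figure D3:**
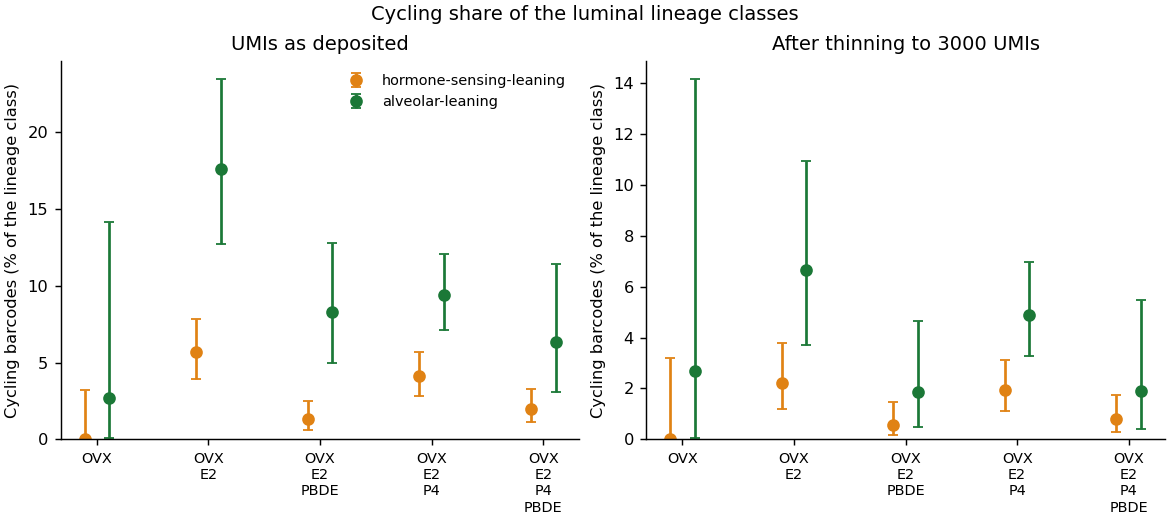
The cycling percent of each lineage class (vertical axis) is plotted for the 5 libraries, as deposited on the left and after thinning on the right, with exact 95% intervals. The green points of the alveolar-leaning class lie above the orange points in all 5 libraries, by 2.49 points on average after thinning.

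Since the cuts differ by library, shares of a class in different libraries can rest on different cuts. By treatment, the L-Alv-leaning share of the cycling barcodes was 12.3 points higher in OVX_E2_P4 than in OVX_E2 (-1.19 to 25.3). In the presence of PBDEs the step with progesterone was -10.3 points (-29.4 to 10.4). OVX_E2_PBDE differed from OVX_E2 by 1.03 points (-15.1 to 18.1), and OVX_E2_P4_PBDE from OVX_E2_P4 by -21.6 points (-37.1 to -2.87). The last is the one difference in this share whose counting interval does not include 0. The L-Hor-leaning share was 19.9 points higher in OVX_E2_P4_PBDE than in OVX_E2_PBDE (0.0242 to 38.9), and the other 3 differences among the libraries with 17β-estradiol, at -12.9, -1.25 and 8.19 points, had intervals that include 0. The share leaning to both differed by -12.9 points between OVX_E2_P4 and OVX_E2 (-23.4 to -2.32). Its other differences among these libraries had intervals that include 0. Other epithelial barcodes differed in the same direction in the L-Alv-leaning share, with 12.6% in OVX_E2_P4_PBDE and 30.0% in OVX_E2_P4. The L-Hor-leaning share also differed in the same direction in both, but by unlike amounts. In OVX_E2, OVX_E2_PBDE, OVX_E2_P4 and OVX_E2_P4_PBDE it was 57.0%, 56.2%, 45.9% and 63.0% of other epithelial barcodes. Of the cycling barcodes it was 30.6%, 17.6%, 29.3% and 37.5%.

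Some cycling barcodes carried a basal programme. At least 3 thinned UMIs of Krt5 and Krt14, the keratins of basal cells, were found in 0 of 108 barcodes in OVX_E2, which allows up to 2.78%, in 2 of 51 in OVX_E2_PBDE, in 8 of 116 in OVX_E2_P4 and in 3 of 40 in OVX_E2_P4_PBDE. All 13 leaned to neither luminal lineage, and 7 of them were among the highest Scrublet scores. OVX_E2_P4 exceeded OVX_E2 by 6.90 points (1.77 to 13.1), and OVX_E2_P4_PBDE exceeded OVX_E2_PBDE by 3.58 points (-7.65 to 16.9). In other epithelial barcodes the same condition was met by 2.28%, 1.99%, 3.34% and 1.63%, and in OVX by 12.6%.

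These barcodes carried most of the basal list in the cycling sums. The list, with Krt5, Krt14, Krt17, Acta2, Myl9, Mylk, Trp63, Oxtr and Cnn1, summed to 85.8, 291, 997 and 561 CPM in the cycling barcodes of OVX_E2, OVX_E2_PBDE, OVX_E2_P4 and OVX_E2_P4_PBDE. Without the 13 barcodes the sums were 85.8, 53.8, 366 and 165 CPM. Acta2, the smooth muscle actin of the contractile apparatus, was at 27.1, 102, 449 and 273 CPM with them and at 27.1, 8.66, 173 and 59.9 CPM without. The ratio of the list between OVX_E2_P4 and OVX_E2 was 11.6 (10.3 to 13.1) and 4.26 (3.75 to 4.86) without those barcodes. In other epithelial barcodes, with none left out, this ratio was 1.38. Between OVX_E2_PBDE and OVX_E2 the ratio in cycling barcodes was 3.39 and turned to 0.627 (0.489 to 0.798) without the 13 barcodes. Between OVX_E2_P4_PBDE and OVX_E2_PBDE it moved from 1.93 to 3.07 (2.30 to 4.11). Those barcodes were chosen by Krt5 and Krt14, which are on the list, and OVX_E2 held none. Both ratios against OVX_E2 could therefore only fall.

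Cycle phase was read from S and G2/M lists, less the 5 genes of the rule, after thinning. Those 5 genes mostly peak in G2 and mitosis, so the rule favours these phases and partly fixes the G2/M share. More UMIs of the G2/M than of the S list were held by 78.7%, 70.6%, 82.8% and 92.5% of the cycling barcodes in OVX_E2, OVX_E2_PBDE, OVX_E2_P4 and OVX_E2_P4_PBDE, and by 3 of 3 in OVX. Other epithelial barcodes also showed this in 68.2% to 70.0%, so the call separates the phases poorly. The mean sums separate better from that level. Cycling barcodes held 10.0, 9.31, 12.1 and 9.98 G2/M UMIs and 4.78, 3.35, 4.06 and 3.12 S UMIs, against 2.17 to 2.49 and 0.798 to 1.10 in other epithelial barcodes. Less the mean of the other epithelial barcodes, G2/M led in 72.2%, 64.7%, 72.4% and 85%.

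Of the differences in the G2/M-leaning share among the libraries with 17β-estradiol, 3 of 4 had intervals that include 0. OVX_E2_P4 exceeded OVX_E2 by 4.05 points (-6.86 to 15) and OVX_E2_PBDE differed from OVX_E2 by -8.12 points (-24.3 to 6.78), and OVX_E2_P4_PBDE from OVX_E2_P4 by 9.74 points (-4.64 to 19.8). OVX_E2_P4_PBDE exceeded OVX_E2_PBDE by 21.9 points (4.36 to 37.5), which became 0.343 points with unthinned sums, so the difference depends on thinning. By lineage, G2/M led in 78.8% of L-Hor-leaning and 78.4% of L-Alv-leaning cycling barcodes of OVX_E2, and in 79.4% and 79.6% of those of OVX_E2_P4. The shares were 7 of 9 (77.8%) and 11 of 18 (61.1%) in OVX_E2_PBDE, and 15 of 15 and 9 of 10 in OVX_E2_P4_PBDE.

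Across genes, 117 of the 9596 with at least 50 UMIs over both sums in each of the 4 libraries with 17β-estradiol were at least 2-fold higher in cycling than in other epithelial barcodes in all 4, or 1.22%, and 7 were lower, or 0.0729%. The rule made this contrast, so the genes below are described by role. The median log2 ratio over the genes tested was -0.03, 0.06, 0.05 and 0.11 in OVX_E2, OVX_E2_PBDE, OVX_E2_P4 and OVX_E2_P4_PBDE. Levels and ratios in the paragraphs on roles follow that order of libraries.

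Among S-phase genes, 20 of the 27 tested, of 43 on the list, were at least 2-fold higher, and the list sum was 3.79, 3.79, 4.05 and 2.89 times that of other epithelial barcodes. Pcna, the sliding clamp of DNA polymerase, was at 94.1, 66.2, 115 and 61.0 CPM against 30.7, 23.7, 31.6 and 27.1 CPM. Slbp, which binds the stem-loop of histone mRNAs, had the highest mean level of the list over the 4 libraries, at 98.1, 62.0, 110 and 74.3 CPM against 43.5, 35.3, 45.5 and 38.1 CPM. Ubr7, a ubiquitin ligase-like protein, had the smallest ratio, at 12.1, 12.2, 11.4 and 6.64 CPM against 9.49, 8.69, 8.43 and 7.03 CPM. Replication licensing genes were higher for 8 of 10, of 16 on the list. Gmnn, the licensing inhibitor geminin, was at 53.3, 38.9, 38.0 and 34.5 CPM against 10.2, 6.05, 6.32 and 7.11 CPM, and Mcm6 at 53.1, 26.1, 34.8 and 25.2 CPM against 11, 6.05, 6.41 and 7.66 CPM. Mcm6 and Mcm5, the latter at 40.7, 20.7, 25.8 and 17.3 CPM, had their highest value in OVX_E2, whereas Mcm3, a further subunit of the helicase, was at 20.4, 17.0, 21.1 and 11.9 CPM. Genes of nucleotide synthesis were higher for 6 of 7, of 8 on the list, with sums 4.89, 4.44, 5.60 and 3.68 times the other level. Rrm2 was at 74.3, 40.1, 77.9 and 41.1 CPM against 4.65, 2.5, 4.68 and 2.61 CPM, and Tk1, thymidine kinase, at 71.6, 54.1, 79.4 and 43.8 CPM. Both were lower in the PBDE libraries than in their partners without PBDEs. Dtymk, thymidylate kinase, was at 196, 129, 149 and 113 CPM against 66.7, 55.1, 54.5 and 62.1 CPM. Fork genes were higher for 8 of 11, of 13 on the list, with Lig1, the ligase that joins Okazaki fragments, at 86.3, 63.8, 84.5 and 41.1 CPM.

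Mitotic genes also chose the barcodes, so their distance from the other epithelial barcodes is partly fixed by the rule. All 7 genes tested of the passenger complex and kinetochore list, which has 16, were at least 2-fold higher. The list sums were 22, 28.4, 18.4 and 18.7 times the other level. Cenpa, the histone H3 variant of centromeres, was at 123, 123, 169 and 138 CPM against 6.03, 3.47, 7.16 and 6.71 CPM. Spc24, a subunit of the NDC80 complex, was at 91.4, 80.8, 111 and 74.3 CPM, and Aurkb, the kinase of the passenger complex, at 30.8, 23.1, 32.1 and 23.9 CPM against 0.251, 0.139, 0.609 and 0.316 CPM. Mad2l1, of the spindle checkpoint, had the smallest ratio, at 34.0, 23.7, 45.8 and 23.9 CPM against 8.79, 5.64, 18.9 and 6.87 CPM. The spindle and cytokinesis list was higher for 4 of 5 genes, of 18, with sums of 5.53, 7.27, 8.85 and 6.20. Stmn1, the microtubule-destabilizing stathmin, was at 569, 487, 682 and 504 CPM against 38.1, 20.7, 43.2 and 29.7 CPM, and the tubulin Tubb5 at 752, 628, 809 and 418 CPM against 189, 118, 123 and 109 CPM. Prc1, which bundles the microtubules of the midzone, was at 63.0, 57.7, 60.3 and 79.6 CPM against 1.95, 1.39, 1.78 and 1.5 CPM, and Aurka, the kinase of spindle poles, at 14.5, 11.5, 14.9 and 10.6 CPM against 9.93, 9.84, 7.91 and 7.11 CPM. Of the anaphase-promoting complex list 2 of 3 genes, of 6, were higher, among them securin, Pttg1, at 60.05, 51.04, 90.4 and 62.4 CPM against 5.09, 4.07, 4.78 and 4.18 CPM.

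Chromatin genes were higher for 9 of 13, of 17 on the list. H2afz, a histone H2A variant, was at 2150, 1465, 2031 and 1639 CPM against 427, 311, 378 and 342 CPM. Smc2, a condensin subunit, was at 78.5, 55.3, 67.7 and 55.7 CPM against 6.60, 3.19, 3.18 and 4.50 CPM. Hmgb2, an architectural chromatin protein on the G2/M list, was at 780.1, 662, 934 and 698 CPM against 124, 106, 119 and 116 CPM. The G2/M list as a whole was higher for 12 of 22 genes, of 49, with sums 3.79, 3.95, 4.83 and 3.90 times the other level.

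Members with small ratios stood in the same lists. By the median over the 4 libraries, the smallest ratio of the licensing, G2/M and chromatin lists belonged to Gins1, Tubb4b and Hmgb3. Gins1, of the GINS complex, was at 27.1, 36.5, 25.8 and 39.8 CPM against 17.3, 24.0, 18.3 and 42.0 CPM. Tubb4b, a tubulin, was at 148, 156, 259 and 158 CPM against 125, 123, 134 and 121 CPM. Hmgb3, a chromatin protein, was at 66.8, 41.3, 47.4 and 37.2 CPM against 38.8, 26.8, 26.5 and 28.1 CPM. Rfc2, of the clamp loader and the smallest of the fork list, was at 79.9, 48.0, 68.5 and 38.5 CPM against 34.1, 25.8, 27.9 and 23.9 CPM. Ube2s, the ubiquitin chain-extending enzyme of the anaphase-promoting complex, was over 2-fold higher in all 4 libraries, at 506, 447, 609 and 605 CPM against 209.9, 176, 229.1 and 229 CPM, and its activator Fzr1 at 30.0, 29.2, 35.6 and 26.5 CPM against 17.7, 17.0, 15.8 and 15.6 CPM. Fibroblast genes, which gauge free RNA, summed to 0.76 to 0.82 times the other level, with Dcn, a collagen-binding proteoglycan, at 370, 488, 171 and 362 CPM against 570.4, 638, 285 and 552 CPM.

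Regulators of entry into the cycle were mixed. Of the cyclins and kinases 3 of 8 genes, of 15, were at least 2-fold higher. Ccnd1, cyclin D1, was at 365, 300.2, 198 and 236 CPM against 241, 170, 152 and 193 CPM, and its partner kinase Cdk4 at 312, 205, 235 and 195 CPM against 159, 122, 124 and 116 CPM. Cks2, a subunit that docks on cyclin-dependent kinases, was at 156, 139, 203 and 178 CPM against 29.3, 24.0, 38.0 and 23.8 CPM, whereas Cdk6 was at 28.7, 22.5, 25.8 and 18.6 CPM against 32.2, 25, 31.9 and 24.6 CPM. Ccne1, a cyclin of S-phase entry with 48, 12, 38 and 2 UMIs, was at 12.9, 7.29, 14.9 and 2.65 CPM against 0.942, 1.02, 1.31 and 0.711 CPM. Ccna2, the cyclin of S and G2, was at 31.4, 27.3, 45.4 and 33.2 CPM against 0.817, 0.277, 0.843 and 1.11 CPM. Of 5 tested CDK inhibitors, of 7, 1 was higher. Cdkn1a, the p21 inhibitor, was at 162, 239, 182 and 227 CPM against 249, 255, 267 and 228 CPM, whereas Cdkn2c, the p18 inhibitor of Cdk4, was at 30.8, 26.1, 31.7 and 53.1 CPM against 11.8, 9.57, 14.4 and 11.7 CPM. None of 5 tested E2F, Rb and DREAM regulators, of 12, reached 2-fold in all 4 libraries, where 1.22% of all genes tested were higher. E2f3 was at 16.1, 10.9, 11 and 10.6 CPM against 5.72, 4.58, 6.65 and 7.18 CPM. The retinoblastoma gene Rb1 was at 23.6, 40.1, 41.5 and 39.8 CPM against 36.3, 39.2, 51.6 and 47.8 CPM. Rbl2, which encodes the pocket protein p130, was at 3.75, 6.68, 4.70 and 11.9 CPM against 7.16, 8.09, 7.91 and 8.37 CPM. E2f1 was at 29.8, 12.8, 10.6 and 7.96 CPM against 4.08, 1.34, 2.01 and 2.37 CPM, and in at least 1 of the libraries it had too few UMIs for the list count.

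**Figure D4:**
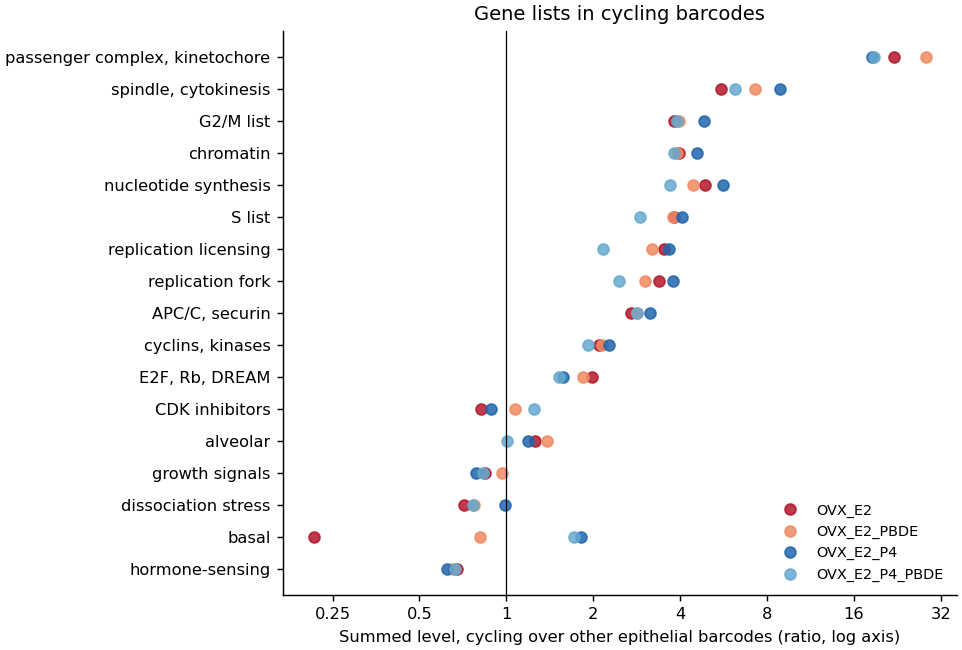
Each point is the summed level of a gene list in cycling barcodes over that in other epithelial barcodes of the same library (horizontal log axis), for the 4 libraries with at least 20 cycling barcodes. The passenger complex and kinetochore list lies at 18.4 to 28.4, replication lists at 2.15 to 5.60, and the hormone-sensing list at 0.62 to 0.67.

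Outside the lists, the 10 genes with the largest lowest ratio were 2810417H13Rik, Hist1h2ap, Lockd, Knstrn, Cenpm, Rbp7, Tcf19, H1fx, Psat1 and Zfp367. 2810417H13Rik, which encodes a PCNA-associated factor, was at 238, 191, 267 and 203 CPM against 5.09, 1.16, 5.85 and 7.5 CPM. Hist1h2ap, a replication-dependent histone with near-identical copies between which reads may be split, was at 675, 1201, 1361 and 1246 CPM against 28.1, 32.9, 24.7 and 48.2 CPM. Lockd, a noncoding RNA from downstream of Cdkn1b, was at 102, 119, 159 and 176 CPM against 5.72, 5.04, 10.3 and 7.74 CPM. Knstrn, a kinetochore and spindle protein, and Cenpm, of the centromere, had lowest log2 ratios of 3.49 and 3.12. Psat1, an enzyme of serine synthesis, was at 37.5, 24.9, 34.8 and 37.2 CPM against 5.34, 4.67, 7.49 and 5.21 CPM.

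The genes with the smallest highest ratio were Tmem86a, Cxcl17, Nupr1, Pik3ip1, Tmem158, Hist2h2aa1, Glul, Rnase1, Hist2h2ac and Nrxn3. Nupr1, a stress-induced chromatin regulator, was at 304, 285, 185 and 322 CPM against 717, 724, 440.3 and 869.9 CPM. Glul, glutamine synthetase, was at 408, 268, 204 and 380 CPM against 978, 720, 515 and 748 CPM. Pik3ip1, an inhibitor of phosphoinositide 3-kinase, was at 6.43, 4.25, 8.61 and 5.31 CPM against 19.0, 13.6, 20.8 and 19.7 CPM. Hist2h2aa1 and Hist2h2ac, histone genes whose transcripts can be polyadenylated, had highest log2 ratios of -1.02 and -0.95, whereas Hist1h2ap lay at the other end.

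Since lineages differ in their share of cycling barcodes, lineage genes were compared within a lineage. In L-Alv-leaning barcodes, Trf, the iron carrier transferrin that is secreted into milk, was at 1320, 1607, 1489 and 896 CPM in the cycling against 2880, 2838, 2813 and 2243 CPM in the others, ratios of 0.458, 0.566, 0.529 and 0.399. Lalba, the alpha-lactalbumin of lactose synthesis, was at 9.68, 27.6, 102 and 58.2 CPM against 51.6, 132, 204 and 209 CPM, and Igfbp5, an IGF-binding protein, at 603, 963, 836 and 645 CPM against 1267, 1758, 1635 and 1269 CPM. Ltf, lactoferrin, was also lower in all 4 libraries, with ratios of 0.518, 0.324, 0.675 and 0.466. Csn3, which chose the class, was higher in 3 of the 4 libraries, at 2144, 2529, 3407 and 1823 CPM against 1360.4, 2133, 2531 and 1904 CPM. Spp1, which also chose the class, was higher in OVX_E2 alone, with ratios of 1.49, 0.705, 0.760 and 0.584. Wfdc18, a milk whey protein gene, had ratios of 1.42, 1.06, 1.35 and 0.882. Elf5, the alveolar transcription factor, was about level, with ratios of 0.982, 0.903, 0.995 and 0.870, each with an interval that includes 1. Csn2, beta-casein, had no UMI in the cycling or the other barcodes of either lineage.

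In L-Hor-leaning barcodes, Prlr was at 1019, 711, 779 and 1108 CPM in the cycling against 1674, 1599, 1374 and 1538 CPM in the others. Pgr, the progesterone receptor, was at 90.7, 72.7, 66.0 and 83.9 CPM against 137, 117, 124 and 117 CPM, and Ly6d, a surface protein, at 893, 1123, 1076 and 1011 CPM against 2409, 1988, 2681 and 1776 CPM. The estrogen receptor gene Esr1 was nearer, with ratios of 0.873, 0.794, 0.854 and 0.972, each with an interval that includes 1. Cited1, the other gene that chose the class, was higher in all 4 libraries, with ratios of 1.28, 1.08, 1.21 and 1.32, of which that of OVX_E2_PBDE had an interval that includes 1. Areg was higher too, at 1925, 4215, 1528 and 1381 CPM against 1362, 1943, 1264 and 1207 CPM. Cdkn2d, the p19 inhibitor of Cdk4, was at 49.7, 64.7, 66.0 and 50.4 CPM against 19.1, 18.5, 14.0 and 10.9 CPM. The 9 cycling barcodes of this class in OVX_E2_PBDE and the 15 in OVX_E2_P4_PBDE carry the values of those libraries.

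Over all cycling barcodes, Prlr was at 730, 629, 585, 399 and 729 CPM in OVX, OVX_E2, OVX_E2_PBDE, OVX_E2_P4 and OVX_E2_P4_PBDE, and Cited1 at 376, 629, 372, 622 and 555 CPM. Csn3 was at 1749, 1137, 1527, 2034 and 1092 CPM, and Spp1 at 461, 759, 1043, 1084 and 470 CPM. Prlr was thus lowest and Csn3 highest in OVX_E2_P4, and in other epithelial barcodes Prlr was lowest in OVX_E2_P4 as well, at 777 CPM against 1027, 1212, 1173 and 1213 CPM in the other libraries. None of the 9 L-Alv genes tested was past 2-fold in all 4 libraries against other epithelial barcodes, and the L-Hor list had none higher and 1 lower, Ly6d. Over all genes tested 1.22% were higher and 0.0729% lower, so a count of 0 in lists this short says little about them.

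Of the growth signals, none of 15 tested genes, of 19, was past 2-fold against other epithelial barcodes in all 4 libraries. Over all genes tested 1.22% were higher and 0.0729% lower, so a count of 0 says little about this list. Within L-Alv-leaning barcodes, Hbegf, an EGF-family ligand, was lower in the cycling, with ratios of 0.470, 0.418, 0.524 and 0.586, and Fgfr1, a fibroblast growth factor receptor, with ratios of 0.520, 0.593, 0.573 and 0.471, each with an interval below 1. Within L-Hor-leaning barcodes the ratios of Hbegf were 0.874, 2.00, 0.695 and 1.11, of which that of OVX_E2_PBDE had an interval above 1 (1.37 to 2.83) and the others included 1, and those of Fgfr1 were 1.04, 0.725, 0.872 and 0.585, each with an interval that includes 1. Areg was at 107, 1080.1, 1327, 601 and 758 CPM in the cycling barcodes of the 5 libraries. Its receptor Egfr was at 8.58, 9.11, 13.3 and 11.9 CPM in the libraries with 17β-estradiol, and Erbb3, a neuregulin receptor of the same family, at 45.3, 60.2, 59.9 and 23.9 CPM. Wnt4, a progesterone-induced ligand, had 0 UMIs in OVX, which allows up to 32.2 CPM, and was at 17.2, 34.6, 33.3 and 67.7 CPM in the others. Its highest value was in OVX_E2_P4_PBDE, where other epithelial barcodes were at 63.3 CPM. Tnfsf11, the RANK ligand that relays progesterone signals between luminal cells, had no UMI in any cycling barcode, which allows up to 0.804, 1.82, 1.17 and 3.98 CPM in the libraries with 17β-estradiol. Its receptor Tnfrsf11a was at 8.04, 6.08, 7.44 and 7.96 CPM, and the Wnt receptors Lrp5 and Lrp6 at 24.7, 26.7, 23.1 and 26.5 CPM and at 31.4, 22.5, 31.7 and 30.5 CPM. Over all cycling barcodes Hbegf was at 109, 162, 106 and 147 CPM, Fgfr1 at 79.3, 85.1, 84.5 and 65.0 CPM, Fgfr2 at 108, 94.8, 98.2 and 114 CPM and Myc at 41.8, 42.5, 46.6 and 53.1 CPM. Ereg, a further EGF-family ligand, had no UMI and Mycn had 1. The remaining members, Erbb2, Erbb4, Igf1r and Stat5a, lay between 2.65 and 37.2 CPM in these libraries.

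With 17β-estradiol against vehicle, Areg was among the 5 genes with the highest ratios, at 1080.1 CPM (4029 UMIs) in OVX_E2 and 107 CPM (10 UMIs) in OVX, a ratio of 10.1 (5.47 to 21.0). Areg was higher by 2.68 on the log2 scale in other epithelial barcodes as well. The other 4 were Crym, Fxyd2, Rad23b and Mrpl34, each with 0 UMIs in OVX, which allows up to 32.2 CPM, and with 133, 87.4, 79.9 and 71.3 CPM in OVX_E2. In other epithelial barcodes their log2 ratios were 1.52, 0.66, 0.02 and 0.74, so Rad23b was level there. Of 6099 genes tested 286 were at least 2-fold higher and 1330 lower, or 4.69% and 21.8%. The median log2 ratio of all these genes was -0.39, and with 0.5 UMI added 716 were higher. Among the lowest were H2-Aa, H2-Ab1, H2-Eb1 and Cd74. Cd74 had a log2 ratio of -6.20, and 1 barcode held all 295 UMIs of OVX. Without it OVX held 0 UMIs of Cd74, so the log2 ratio of 1.49 is set by the 1 UMI added. It measures neither the size nor the sign of a difference. S-phase genes summed to 2.72 times the level of OVX (2.05 to 3.70), with 9 of 29 tested genes past 2-fold and none lower, and G2/M genes to 0.903 (0.808 to 1.01). The OVX side rests on 3 barcodes throughout.

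With progesterone, OVX_E2_P4 differed from OVX_E2 by at least 2-fold in 121 genes that were higher and 54 that were lower of 7834, or 1.54% and 0.689%. The highest were Il17b, Ccl5, Mylk, Acta2 and Tagln. Il17b, a cytokine, was at 24.7 CPM (63 UMIs in 20 barcodes) against 1.07 CPM (4 UMIs), and at 15.6 CPM without the barcodes with Krt5 and Krt14. Mylk, the myosin light chain kinase, was at 41.5 against 2.14 CPM and Tagln, transgelin, at 289 against 17.4 CPM, and without those barcodes OVX_E2_P4 was at 15.6 and 91.8 CPM. Ccl5, a chemokine, was at 312 against 16.6 CPM, with 712 of its 797 UMIs in 1 barcode. All 7 tested basal genes were past 2-fold, against 1.54% of all genes.

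The lowest genes with progesterone were Dmbt1, Tesc, Gpx3, Meis3 and Wdhd1. Dmbt1, a secreted mucosal protein, was at 4.31 CPM (11 UMIs) against 45.6 CPM (170 UMIs), with a log2 ratio of -3.29 and one of -0.11 in other epithelial barcodes. Gpx3, a secreted glutathione peroxidase, was at 805 CPM (2058 UMIs) against 2305 CPM (8597 UMIs), a log2 ratio of -1.52, and in other epithelial barcodes of -1.78. Alveolar genes summed to 1.58 times the OVX_E2 level (1.54 to 1.61) and hormone-sensing genes to 0.763 (0.739 to 0.787), against 1.67 and 0.826 in other epithelial barcodes. S-phase genes stood at 0.891 (0.852 to 0.931) and G2/M genes at 1.20 (1.17 to 1.24). Dissociation stress genes, such as Fos, at 1791 CPM in OVX_E2_P4 and 1020.3 in OVX_E2, summed to 1.38 (1.35 to 1.42), against 0.996 in other epithelial barcodes, and their part in the results was not tested.

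With PBDEs present, Tagln was again among the 5 highest genes of the step with progesterone, while Ccl5 was among the 5 lowest, and the difference between the steps was not tested. OVX_E2_P4_PBDE against OVX_E2_PBDE had 59 genes higher and 62 lower of 4373, or 1.35% and 1.42%. The highest were Fxyd2, Pcp4, Tagln, Tsix and Cd248, and the lowest Rsad2, Ccl5, Wfdc12, Defb1 and Isg15. Pcp4, a calmodulin regulator, was at 220.3 against 58.9 CPM, and other epithelial barcodes differed alike, by 2.19 on the log2 scale. Fxyd2, a subunit that modulates the sodium pump, was at 245 against 58.9 CPM, and at 589 against 253 CPM in other epithelial barcodes. Tsix was at 61.0 against 16.4 CPM in cycling barcodes and at 88.6 against 20.1 CPM in other epithelial barcodes. In fibroblast-gated barcodes Tsix was at 89.8 against 19.8 CPM. Tagln was at 139 against 37.7 CPM, with UMIs in 9 barcodes of each library and up to 47 in 1 barcode. In other epithelial barcodes Tagln was at 77.9 against 87.3 CPM. Rsad2 and Isg15, interferon-induced genes, were at 1.33 against 56.5 CPM and at 15.9 against 77.8 CPM, and a single barcode of OVX_E2_PBDE held 58 of its 93 Rsad2 UMIs. A single barcode also held 51 of its 128 Isg15 UMIs, and Isg15 was at 47.9 CPM without it. Ccl5 had 378 of 405 UMIs, Wfdc12 48 of 54 UMIs and Defb1 53 of 82 UMIs in 1 barcode of that library. Alveolar genes summed to 0.623 (0.595 to 0.651) of the OVX_E2_PBDE level and S-phase genes to 0.818 (0.744 to 0.897), while G2/M genes were at 1.02 (0.971 to 1.08).

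PBDEs on 17β-estradiol went with lower sums of replication genes. OVX_E2_PBDE stood at 0.717 (0.678 to 0.758) of OVX_E2 for S-phase genes, at 0.656 (0.595 to 0.723) for fork genes and at 0.898 (0.867 to 0.930) for G2/M genes, and other epithelial barcodes at 0.718, 0.734 and 0.862. Of 7231 genes 72 were at least 2-fold higher and 95 lower, or 0.996% and 1.31%, and of the 36 S-phase genes tested none was, while 2 of 11 fork genes were lower. The lowest genes were Adm, Dmbt1, Slc24a5, Pcp4 and Pfas. Pcp4 was at 58.9 CPM (97 UMIs) against 218 CPM (813 UMIs), a log2 ratio of -1.87, and of -2.58 in other epithelial barcodes. Slc24a5, a cation exchanger, was at 2.43 against 12.3 CPM, with a log2 ratio of -2.05 in cycling and in other epithelial barcodes. Adm, the peptide hormone adrenomedullin, was at 2.43 against 12.9 CPM and at 8.46 against 8.35 CPM in other epithelial barcodes. A single barcode held 22 of the 48 Adm UMIs of OVX_E2, and fibroblast-gated barcodes were at 93.1 against 141 CPM. The highest were Ccl5, 1500015O10Rik, Isg15, Wfdc12 and Rsad2, of which 1500015O10Rik, a secreted peptide gene, was at 54.1 against 6.43 CPM with 50 of 89 UMIs in 1 barcode.

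With progesterone present, OVX_E2_P4_PBDE stood below OVX_E2_P4 in both phases, at 0.658 (0.603 to 0.717) for S-phase genes and 0.764 (0.728 to 0.801) for G2/M genes, where other epithelial barcodes were at 0.922 and 0.945. Fork genes were at 0.614 (0.530 to 0.710) and spindle genes at 0.654 (0.614 to 0.696). Alveolar genes were at 0.520 (0.498 to 0.542) and 0.614 in other epithelial barcodes, and hormone-sensing genes at 1.21 (1.15 to 1.27) and 1.14. Dissociation stress genes were at 0.696 (0.667 to 0.726) and 0.905 in other epithelial barcodes, and their part in the phase sums was not tested. Basal genes were at 0.563, and at 0.452 (0.368 to 0.550) without the 13 barcodes that held Krt5 and Krt14. Of 5556 genes 61 were at least 2-fold higher and 114 lower, or 1.1% and 2.05%. The lowest were Ccl5, S100g, Zbtb10, Fgg and Thap11. S100g, the calcium-binding calbindin D9k, had 0 UMIs, which allows up to 3.98 CPM, against 50 UMIs (19.6 CPM) in 7 barcodes, while other epithelial barcodes were at 22.9 against 10.8 CPM. Fgg, the fibrinogen gamma chain, was at 11.9 against 63.0 CPM, and at 30.9 against 71.5 CPM in other epithelial barcodes. The highest were Cd248, 1500015O10Rik, Lyz2, Ogn and Wbscr22. Cd248 and Ogn are stromal genes, at 45.1 against 10.6 CPM and at 66.4 against 21.5 CPM, and stood at 341 against 277 CPM and at 1071 against 808 CPM in fibroblast-gated barcodes. Lyz2, the macrophage lysozyme, was at 34.5 against 10.2 CPM, and at 35.4 against 13.0 CPM in other epithelial barcodes. The part of free stromal and macrophage RNA in these values was not tested.

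**Figure D5:**
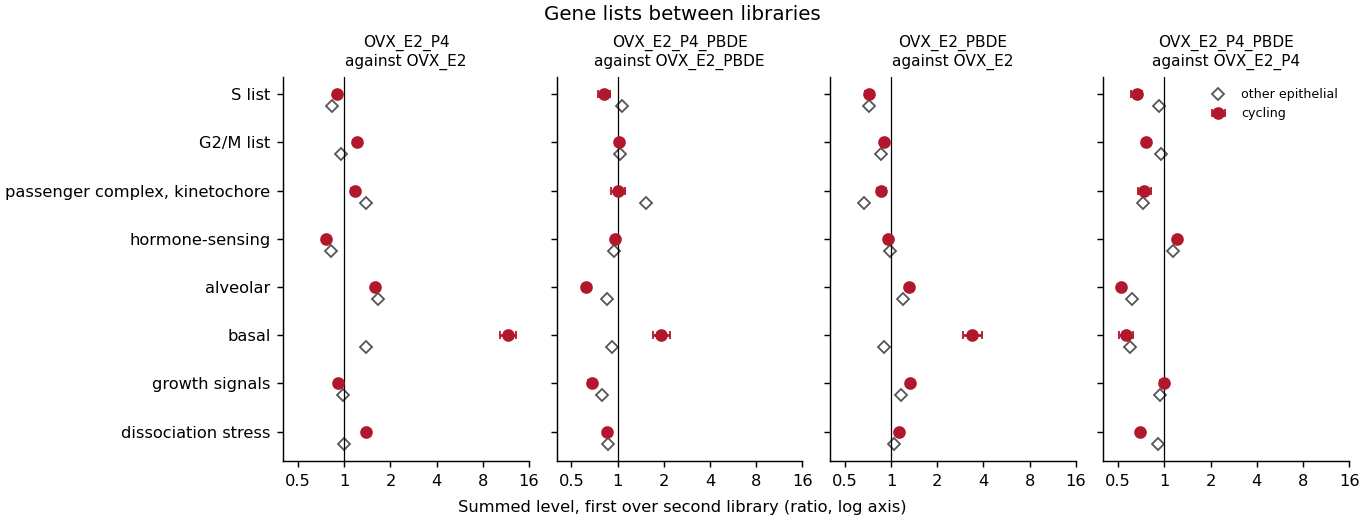
Each panel gives, for a pair of libraries, the summed level of a gene list in the first over the second (horizontal log axis), with red points for cycling barcodes with 95% counting intervals and open diamonds for other epithelial barcodes. The S list lies below 1 in the cycling barcodes of all 4 panels, and the basal list at 11.6 in the first panel, where other epithelial barcodes are at 1.38.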

How the data were processed

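Single-cell RNA was measured in 5 libraries, 1 per group, on the 10x Genomics platform. Per the labels and the study's methods, reads were aligned to the mouse genome mm10 and counted by the authors, the submitters' processing notes name Cell Ranger 2.0.0, and the authors deposited filtered matrices of whole, unnormalized counts. The lowest count of a deposited barcode was 3374 to 5395 UMIs in the 5 libraries. Reads and cell calling were not repeated here.

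Members were selected with the stated rule. The members, gene lists and comparisons were chosen with earlier results of these data known. Levels are UMIs summed over barcodes and scaled to a sum of 1000000 (CPM). Ratios add 1 UMI to each sum on the log2 scale, need at least 50 UMIs over both sums, and carry exact conditional binomial 95% intervals. The authors' counts give each share an exact Clopper-Pearson interval, a count of 0 is read as up to 3 counts, and an interval of a difference combines both. These cover counting error only. Barcodes were thinned to 3000 UMIs for lineage, phase and depth-matched shares. No doublets were removed. Scrublet in scanpy 1.11.5 scored them, and the top 20% of each library was left out as an alternative. Python 3.11.15, numpy 2.4.6, scipy 1.17.1, pandas 2.3.3 and matplotlib 3.10.9 were used, and the procedure was tested on simulated data. Promoter sequences are from RefSeq on GRCm38.p6, the assembly of mm10, and 27025 gene symbols had a window.

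Genes were named by rule. The rule took the 6 label markers, and from each list up to 4 genes with the highest level or the most extreme ratio. Outside the lists it took the 10 largest and 10 smallest ratios of cycling to other epithelial barcodes, and per comparison the 5 largest and 5 smallest ratios. It also took the lineage and growth signal genes. Of the genes picked by comparison, 1 is not reported here, and Dpt, Dnajb1, Hspa1a, Egfl7, Pecam1 and Notch3 were picked from the lists and are not described. Mcm3, Mcm5, Mcm6, Ccne1, Wfdc18, Tk1, Cenpa, Spc24, Aurkb, Ccna2, Cdk4, E2f1, Cdkn2d, Trf, Ltf, Elf5, Csn2, Esr1 and Pgr are named beside these and were chosen after their values were seen. Alternatives covered thinning, denominators, gates, lineage genes and cuts, UMI minimums, the added count and single barcodes.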

Additional observations from a re-analysis of the deposited data

Results flagged for a closer look

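Several differences pointed in opposite directions in the presence and absence of the other treatment. The difference between these effects was not tested, because each group is 1 library. The L-Alv-leaning share of cycling barcodes differed with progesterone by 12.3 points without PBDEs and by -10.3 points with them, and with PBDEs by 1.03 points without progesterone and -21.6 points with it. The G2/M-leaning share differed with PBDEs by -8.12 points without progesterone and 9.74 points with it, and the first of these changed its sign with unthinned sums.

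Among single genes, the log2 ratio with progesterone, without and with PBDEs, was 4.21 and -4.37 for Ccl5, -1.004 and 1.86 for Cd248, 1.68 and -2.18 for Isg15, and -1.10 and 1.90 for Pcp4. With PBDEs, without and with progesterone, it was 3.87 and -4.71 for Ccl5, 2.80 and -1.06 for Isg15, -1.87 and 1.12 for Pcp4, and 1.18 and -3.91 for S100g. The last value is set by the 1 UMI added and is no bound, since S100g had 0 UMIs in OVX_E2_P4_PBDE, which allows up to 3.98 CPM against 19.6 CPM. Single barcodes held 93.3% of the Ccl5 UMIs of OVX_E2_PBDE, 89.3% of those of OVX_E2_P4, 39.8% and 35.2% of the Isg15 UMIs of the same libraries, and 96.6% of the S100g UMIs of OVX_E2_PBDE. Pcp4 was spread over 51, 11, 38 and 18 cycling barcodes of OVX_E2, OVX_E2_PBDE, OVX_E2_P4 and OVX_E2_P4_PBDE.

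Cycle genes also appeared outside the epithelial gates. At least 2 cycle UMIs were held by 2.84% (33 of 1160) of such barcodes in OVX_E2, 3.34% (42 of 1256) in OVX_E2_P4 and 2.34% (27 of 1155) in OVX_E2_P4_PBDE, whose intervals lay above that of OVX at 0.638% (18 of 2821). In OVX_E2_PBDE it was 1.18% (27 of 2279). Of these 147 barcodes 100 held a Ptprc UMI, 114 were below the epithelial limit and 28 failed on Ptprc alone.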

How the results depend on the processing

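Of 168 recomputed values for comparisons 119 stayed within counting error or within 1.5 times, and of 341 for single genes 277 did, 60 moved and 4 changed sign. No paired analysis was possible because each group has 1 library, and no replicate could be left out. The cause of each change was not tested, except that a stricter filter tests fewer genes. The cycling share of OVX_E2 less OVX was 3.10 points with thinning and 4.74 of all barcodes, of OVX_E2_P4 less OVX_E2 -0.585 and -1.10, and of OVX_E2_PBDE less OVX_E2 -2.18 and -3.39. That of OVX_E2_P4_PBDE less OVX_E2_PBDE turned from -0.735 to 0.253 points of all barcodes and to 0.107 without high Scrublet scores, each with an interval that includes 0. The L-Alv-leaning share of OVX_E2 less OVX was 39.7 points without high Scrublet scores and -62.2 with a thinned cycle condition, on 3 or fewer OVX barcodes. The G2/M-leaning share of OVX_E2_P4_PBDE less OVX_E2_PBDE was 0.343 points with unthinned sums, and of OVX_E2_PBDE less OVX_E2 it was 7.26 with a thinned condition and 8.82 with unthinned sums.

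Counts of genes past 2-fold moved with the filter and with the barcodes used. With at least 20 UMIs, and then at least 100, genes higher and lower were 295 and 148, then 66 and 22, for OVX_E2_P4 against OVX_E2. They were 232 and 230, then 22 and 19, for OVX_E2_P4_PBDE against OVX_E2_PBDE, 178 and 237, then 34 and 31, for OVX_E2_PBDE against OVX_E2, and 236 and 356, then 27 and 43, for OVX_E2_P4_PBDE against OVX_E2_P4. For OVX_E2 against OVX 2846, then 516, were lower, and 716 were higher with 0.5 UMI added. Against other epithelial barcodes 199, then 68, were higher. By mean CPM over barcodes 92, 96, 156 and 192 were lower in the comparisons other than with OVX, in the order just given, and 19 against other epithelial barcodes. Without high Scrublet scores OVX_E2_P4_PBDE against OVX_E2_PBDE had 36 higher and 40 lower, and 13 were lower against other epithelial barcodes. In L-Alv-leaning barcodes alone the counts were 95 higher for OVX_E2 against OVX, 50 higher for OVX_E2_P4 against OVX_E2, 36 higher and 18 lower for OVX_E2_P4_PBDE against OVX_E2_PBDE, 29 higher for OVX_E2_PBDE against OVX_E2, and 29 higher and 4 lower against other epithelial barcodes. Without the highest barcode of each gene, chosen after seeing the data, 180 were lower for OVX_E2_PBDE against OVX_E2 and 242 for OVX_E2_P4_PBDE against OVX_E2_P4. The log2 ratio of Cd74 between OVX_E2 and OVX turned to 1.46 without high Scrublet scores and to 1.49 without the OVX barcode that held it, a removal also chosen after seeing the data. Either way OVX was left with 0 UMIs of Cd74, so these values are set by the 1 UMI added and their sign is not measured. In L-Alv-leaning barcodes alone Crym turned to -0.29 and the highest ratio of Tmem158 to 0.062. The Crym value is set by the 1 UMI added, since OVX held 0 UMIs of Crym and 1 L-Alv-leaning cycling barcode, so its sign is not measured. The smallest sums were 93175 UMIs in OVX and 753566 in OVX_E2_P4_PBDE, and the part of depth in these changes was not tested.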
